A study of Mus musculus with 2 samples.

Results

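The cells described here are 749 barcodes of the E12.5 limb library, chosen by their measured counts: each carried at least 1 UMI of at least 3 of the 6 genes Aldh1a2, Ebf2, Tshz1, Tshz2, Cxcl12 and Gdnf. A UMI is a tag on a single captured RNA molecule, and a barcode is the tag of a droplet that mostly held 1 cell. The same barcodes had at least 500 detected genes, under 10% mitochondrial UMIs and no UMI of the 5 exclusion genes Myog (muscle), Cdh5 (endothelium), Ptprc (blood), Gdf5 (joint) and Matn1 (cartilage). They made up 6.10% (95% interval 5.69 to 6.54) of the 12271 E12.5 barcodes that passed the filters on genes and mitochondrial UMIs. The 2 libraries of the series, E12.5 and E15.5, held 18721 barcodes together.

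Both libraries came from wild-type C57Bl/6 mouse embryos, and in both the fore- and hindlimb muscle was pooled, dissociated with trypsin and captured with the 10x 3-prime v3.1 chemistry. The 2 groups differ in embryonic age, E12.5 against E15.5. Each age is 1 library without a replicate, the number of embryos in it was not given in the labels, and no test of a difference was made. Every interval given is at 95% and holds counting error alone. The tissue is labelled limb skeletal muscle, but only 425 of the 12271 E12.5 barcodes carried Myog and 244 carried Pax7, the markers of differentiating and progenitor muscle cells.

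The limb bud is filled with mesenchyme that gives rise to cartilage, tendon, dermis and the connective tissue that wraps and patterns muscle. Aldh1a2 is the main enzyme that makes retinoic acid in the embryo, and Meis genes, active in the proximal limb, are known to respond to retinoic acid. Ebf2 is an early B-cell factor family transcription factor, Tshz1 and Tshz2 are teashirt zinc-finger transcription factors, Cxcl12 is a chemokine that acts through Cxcr4, and Gdnf is a growth factor that acts through Gfra1 and Ret and guides limb motor axons. On GRCm38, with GENCODE vM21 gene bounds, Aldh1a2 spans chr9:71215789-71296243, Ebf2 chr14:67233292-67430918, Tshz2 chr2:169633013-170071816, Cxcl12 chr6:117168535-117181367 and Gdnf chr15:7810846-7837575, all on the plus strand.

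The working name of this population, after Aldh1a2 and Ebf2, went only part of the way with the counts. Tshz2 was seen in 675 members (90.1%), Tshz1 in 580 (77.4%), Cxcl12 in 549 (73.3%) and Ebf2 in 460 (61.4%). Aldh1a2 was seen in 135 members (18.0%) and Gdnf in 73 (9.75%). The population is therefore called by its rule here, and its barcodes are called members. These values are set by the rule and support nothing about it. The commonest sets of genes were Tshz1, Tshz2 and Cxcl12 in 189 members, Ebf2, Tshz1 and Tshz2 in 120, and Ebf2, Tshz2 and Cxcl12 in 100.

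In levels, counted as UMIs per 1000000 summed over all barcodes of a group (CPM), the members held 573 CPM of Tshz2, 419 of Tshz1, 362 of Cxcl12, 259 of Ebf2, 82.8 of Aldh1a2 and 38.03 of Gdnf. The comparison group, used throughout, is 749 other E12.5 barcodes without a UMI of the exclusion genes, paired 1 to 1 with the members on total UMIs and called matched barcodes (median 3246 UMIs against 3247 in members). These held 158, 83.5, 92.1, 28.7, 5.97 and 1.86 CPM of the same genes.

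Free RNA in droplets gives UMIs in cells that do not make a transcript, so the shares were set beside barcodes with Cdh5, an endothelial cadherin gene (256 barcodes, median 3388 UMIs). Of these, 34.0% had Tshz2, 16.8% Tshz1, 13.3% Cxcl12, 9.38% Ebf2, 0.781% Aldh1a2 and 0.781% Gdnf. In the matched barcodes Tshz2 was seen in 32.3%, Tshz1 in 19.1% and Ebf2 in 7.08%, close to those in the Cdh5 barcodes, while Cxcl12 was at 21.9%. Barcodes with Myog (median 3728 UMIs) had Tshz2 in 17.9%, at 65.2 CPM, and those with Ptprc (median 4635.5 UMIs) in 20.7%, at 72.4 CPM, both below the 158 CPM of the matched barcodes. The limb mesenchyme gene Prrx1 was seen in 42.6% of the Cdh5 barcodes, at 340 CPM, so they may not all be endothelial cells. In cluster 18 (given below, 159 barcodes, led by Cdh5), Ebf2 was at 7.64, Tshz1 at 42.0 and Cxcl12 at 20.4 CPM. The Cdh5 barcodes had 27.5, 59.7 and 45.5 CPM of these genes. Tshz2 was at 107 CPM in cluster 18 against 127, and Aldh1a2 went the other way, at 2.55 against 1.89. How much of the matched level is free RNA was not tested.

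Of the members, 549 had exactly 3 of the 6 genes, 178 had 4, 19 had 5 and 3 had all 6. Just outside the rule lay 1475 barcodes with exactly 2. From exactly 2 to exactly 3 genes, Tshz2 went from 431 to 528 CPM, Ebf2 from 98.2 to 216 CPM, Aldh1a2 from 31.0 to 64.8 CPM and Gdnf from 6.74 to 20.9 CPM. A further 118 barcodes had 3 or more of the genes but carried an exclusion gene, most often Matn1 (66 barcodes) and Gdf5 (28), with Myog in 17, Cdh5 in 11 and Ptprc in 2.

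Membership followed depth, since a gene is seen more often in a barcode with more UMIs. With the barcodes cut by depth into 10 equal groups, the share of members was 1.47% in the shallowest (median 1131.5 UMIs) and 13.5% in the deepest (median 5625 UMIs). The share with the highest doublet scores, which mark droplets that may hold more than 1 cell, was 23.5% of the members, 16.3% of the matched barcodes and 10.3% of all kept E12.5 barcodes. Values without these barcodes stand beside the counts of genes. Of the 749 members, 1 shared its barcode sequence with a barcode of the E15.5 library, among 17 sequences that occurred in both.

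The members' mesenchymal identity was read from markers outside the rule. At least 3 of 11 limb mesenchyme markers were seen in 95.5% of members and in 86.0% of matched barcodes, and the 11 summed to 5430 against 4753 CPM. Col3a1, a fibrillar collagen, was at 1899 against 1410 CPM, and Pdgfra, a receptor of mesenchymal cells, at 470 against 344 CPM. Prrx1, a homeobox gene of limb mesenchyme, was at 816 against 964 CPM. Markers of other cell types were read the same way. The 10 counted muscle markers summed to 74.9 CPM in members against 216 in matched barcodes, 6 immune markers to 2.61 against 25.4, 6 endothelial markers to 22.7 against 20.1, and 8 erythroid markers to 286 against 2980. The sums were 28.7 against 44.4 CPM for Schwann and neural crest markers, 103 against 208 for mural markers, 150 against 144 for tendon markers, 224 against 235 for joint markers and 132 against 115 for osteoblast markers. They were 55.5 against 44.0 CPM for neuron markers, 12.7 against 18.3 for epithelial markers and 3.36 against 4.48 for melanocyte markers. Chrna1, Cldn5 and Tyrobp, markers of muscle, endothelium and immune cells, had no UMI in any member, against 3, 4 and 12 in matched barcodes. Wnt6, Cdh1, Krt15, Krt14 and Krt5, of 7 epithelial markers, had none either, against 2 to 7 UMIs each in matched barcodes. Mymk, alone of the counted muscle markers, was higher in members, at 11 against 1 UMIs. Of the endothelial markers, Pecam1 (10 against 5 UMIs), Tek, Emcn and Egfl7 were higher in members, and Kdr and Cldn5 lower. Counts this small do not show that a cell type is absent.

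To see whether the rule genes kept together when a gene did not take part in the choice, each gene was measured in barcodes with at least 2 of the other 5 rule genes, against depth-matched barcodes with none of the other 5. Gdnf was at 14.5 against 1.40 CPM, a log2 ratio of 3.37 (2.38 to 4.53). Aldh1a2 was at 32.3 against 4.46 CPM, a log2 ratio of 2.86 (2.29 to 3.48), and Ebf2 at 113 against 23.0 CPM, 2.30 (2.03 to 2.58). Tshz2 was at 389 against 122 CPM, 1.67 (1.52 to 1.82). Tshz1 had a log2 ratio of 1.45 (1.28 to 1.62) and Cxcl12 of 1.36 (1.18 to 1.53). All 6 genes were thus more abundant where the others were seen, with the scarcest 2 genes at the highest ratios. The genes were proposed with these data in view, so that this is a description.

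**Figure D1:**
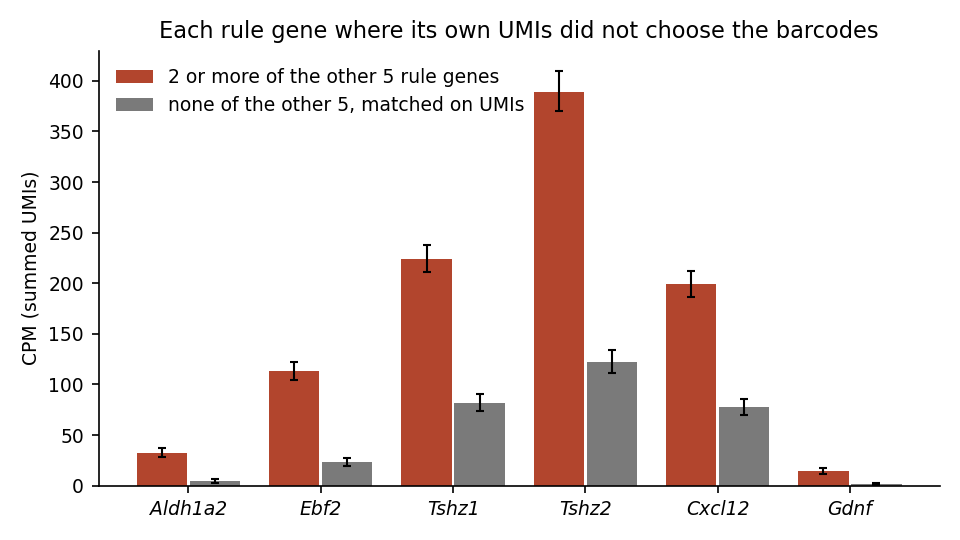
Level of each of the 6 rule genes (CPM of summed UMIs, vertical axis from 0) in E12.5 barcodes with at least 2 of the other 5 rule genes (red) and in depth-matched barcodes with none of the other 5 (grey); error bars are exact Poisson 95% intervals. Each red bar is above its grey bar, from 389 against 122 CPM for Tshz2 to 14.5 against 1.40 CPM for Gdnf.

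Pairs of the 6 genes were not equally close. The 9377 kept barcodes without an exclusion gene were cut by depth into 10 groups of their own. Stratified by these groups, the Mantel-Haenszel odds ratio of being seen together was 5.03 for Ebf2 and Gdnf. Both were seen in 47 barcodes, where 15.8 would be seen if they were unrelated. The odds ratio was 3.81 for Tshz1 and Gdnf, 3.08 for Aldh1a2 and Cxcl12, and 2.86 for Aldh1a2 and Ebf2. Tshz1 and Cxcl12 had an odds ratio of 1.38. The lowest was Aldh1a2 and Gdnf at 1.32, seen together in 5 barcodes against 3.86 if unrelated.

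Outside the rule genes, few genes stood 2-fold apart from the matched barcodes. Of 7374 genes at 20 CPM or more in either group, 14 were at least 2-fold higher in members (0.19% of those compared) and 25 at least 2-fold lower (0.339%), with 10 CPM added to both sides, and the median log2 ratio was 0.02. The higher side held the transcription factor genes Meis2, Hic1, Meox1, Nr2f2 and Ebf3, and the lower side held cartilage, muscle and 6 haemoglobin genes. Without the barcodes of the highest doublet scores the counts were 31 and 43. With 1 CPM added they were 42 and 41, and against all other barcodes without depth matching 17 and 63.

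Meis2, a homeobox gene of the proximal limb, was at 433 CPM in members (409 to 459) and 154 (140 to 170) in matched barcodes, a 2.81-fold difference and a log2 ratio of 1.49 (1.33 to 1.65). It was seen in 51.8% of members and 26.4% of matched barcodes, and in the Cdh5 barcodes it was at 79.6 CPM. Its relative Meis1 was at 157 against 74.2 CPM, a log2 ratio of 1.08 (0.83 to 1.33). Meis2 and Meis1 were each above the matched barcodes by more than counting error. On the same build, Meis2 spans chr2:115863064-116065839 and Hic1 chr11:75164565-75169519, both on the minus strand, and Ebf3 spans chr7:137193673-137314445 on the minus strand.

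Hic1, a transcriptional repressor that marks mesenchymal progenitors, was at 80.9 against 25.4 CPM, a log2 ratio of 1.67 (1.27 to 2.09). Meox1, a homeobox gene of somites and their derivatives, was at 74.2 against 27.6 CPM, 1.43 (1.03 to 1.83). Nr2f2, the nuclear receptor COUP-TFII, was at 210 against 94.0 CPM, 1.16 (0.94 to 1.38). Ebf3, of the same family as the rule gene Ebf2, was at 273 against 129 CPM, 1.08 (0.89 to 1.27), and its relative Ebf1 was at 309 against 176 CPM, 0.81 (0.65 to 0.98). Tbx3, a T-box gene that patterns the limb, was at 129 against 61.2 CPM, 1.07 (0.80 to 1.35). The intervals of all these ratios lay above 0.

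Other genes on the higher side were Pcp4, whose protein binds calmodulin, at 108 against 35.1 CPM, and Camk2d, a calcium- and calmodulin-dependent kinase, at 187 against 70.5 CPM. Amot, a scaffold of the Hippo pathway, was at 452 against 190 CPM and seen in 68.0% of members. Pappa, a protease that cleaves IGF-binding proteins, was at 66.4 against 26.9 CPM. Inhba, an activin subunit, Cdh4, a cadherin, and Phlda1 had log2 ratios of 1.14, 1.12 and 1.04. With the 10 CPM added for the 2-fold count these were 0.913, 0.909 and 0.955, so they were not among the 14. Meis1 (0.987) and Tbx3 (0.962), given above, were not among them either. Zadh2, an oxidoreductase gene, was at 54.1 against 21.3 CPM. Its start lies 356 bases from the start of the rule gene Tshz1, on the opposite strand of chromosome 18, and whether reads of one were counted for the other was not tested. The 4 remaining genes past 2-fold, Gm26737, Syt13, Lgi1 and Crym, lay between 20.1 and 37.7 CPM in members.

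On the lower side, Col2a1, the main cartilage collagen, was at 288 against 656 CPM, a log2 ratio of -1.19 (-1.31 to -1.06). Cnmd, chondromodulin, was at 16.8 against 66.0 CPM, -1.98 (-2.48 to -1.50). Col9a1 and Col9a3, chains of cartilage collagen IX, were at 69.7 against 191 and 55.2 against 161 CPM. Sox6, a partner of Sox9 in cartilage, was at 42.1 against 107 CPM, and Wwp2, a ubiquitin ligase whose gene hosts a cartilage microRNA, at 135 against 307 CPM. Mia, a secreted cartilage protein, and Papss2, which makes the sulphate donor of proteoglycans, had log2 ratios of -1.51 and -1.29. The rule leaves out barcodes with Matn1, a cartilage gene, from both groups.

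Acta2, a smooth muscle actin, was at 29.1 against 93.6 CPM, Itga4, an integrin, at 13.8 against 51.5, Ttn, the sarcomeric protein titin, at 48.1 against 139, and Tnnt1, a slow troponin, at 36.9 against 86.9. Muscle markers as a list were also lower in members, as given above. Against matched barcodes with a UMI of Prrx1 or Pdgfra, Acta2 had a log2 ratio with 10 CPM added of -0.65 in place of -1.41, Ttn of -0.79 in place of -1.36, Tnnt1 of -0.43 in place of -1.05, and Itga4 of -0.78 in place of -1.37, so that none of the 4 stayed 2-fold lower. Meis2 had 1.40 in place of 1.43 and Col2a1 -1.12 in place of -1.16. Sema3c, a semaphorin, was at 25.4 against 77.6 CPM, Lef1, a transcription factor of Wnt signalling, at 19.01 against 50.4, and Gria2, a glutamate receptor subunit, at 21.6 against 54.1. Among barcodes read as female, Gria2 was the other way round, with a log2 ratio (10 CPM added) of 0.089. The 6 haemoglobin genes past 2-fold were led by Hbb-y, at 83.1 against 1558 CPM, although it was seen in 24.4% of members and 26.97% of matched barcodes, and 19 of the matched barcodes against 11 members had 3 or more erythroid markers. At E15.5 the direction was the other way for Hbb-bt, at 425 CPM in members and 22.4 in matched barcodes of that age, and for Hba-a1, at 297 against 20.8.

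**Figure D2:**
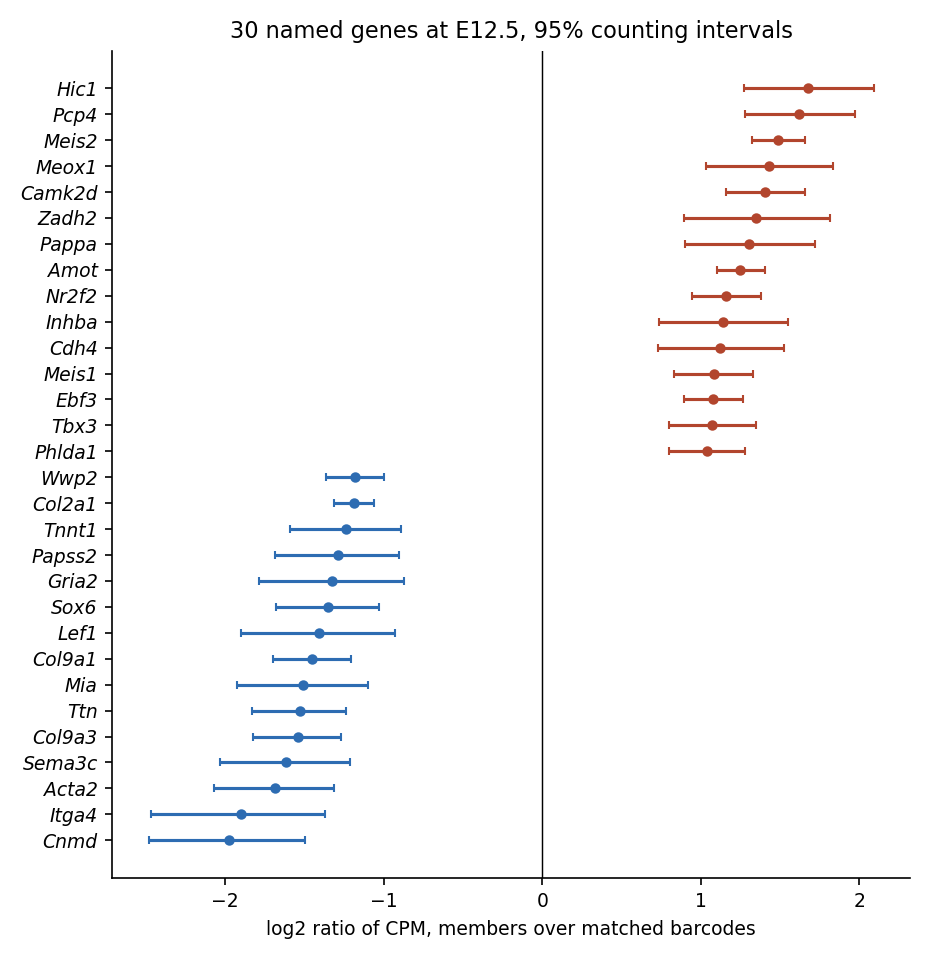
Log2 ratio of CPM, members over matched barcodes at E12.5, for the 30 named genes; points are ratios without added counts and bars are 95% conditional intervals for counting error. Hic1 (1.67) and Pcp4 (1.62) are highest and Cnmd (-1.98) and Itga4 (-1.90) lowest, and no interval reaches 0 for these genes, which were named for their large ratios.

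The starts of the genes that were high together were read for 3 short motifs. RefSeq windows on GRCm38.p6, from 250 bases before to 50 after a start, were searched for 13 of the 21 rule and higher genes, in 15 windows. The letters TCCCNNGGGA, the palindrome bound by Ebf proteins, were searched on both strands and occur in 0.904% of all 32851 windows. They were found in the Hic1 window at chr11:75168103-75168402 (minus strand), 97 bases before the start of that transcript. This RefSeq start lies inside the Hic1 bounds given above, and the Gdnf window likewise uses a start upstream of the Gdnf bounds given above. TGACAG, bound by Meis proteins and in 19.2% of all windows, was found in the Ebf3 window at chr7:137314396-137314695 (minus strand), and AGGTCA, the core site of nuclear receptors and in 16.3% of all windows, in those of Amot, Pcp4 and Gdnf, the last at chr15:7809798-7810097 (plus strand). Of the 5 windows with a match, 1 is shown for each motif, and for AGGTCA that of the rule gene Gdnf, with the match in capitals.
Hic1: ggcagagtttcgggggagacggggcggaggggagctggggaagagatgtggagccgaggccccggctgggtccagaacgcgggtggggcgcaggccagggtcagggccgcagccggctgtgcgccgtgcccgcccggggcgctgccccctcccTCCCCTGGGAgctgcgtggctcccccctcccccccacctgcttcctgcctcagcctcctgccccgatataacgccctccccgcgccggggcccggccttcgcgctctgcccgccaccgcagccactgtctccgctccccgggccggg
Ebf3: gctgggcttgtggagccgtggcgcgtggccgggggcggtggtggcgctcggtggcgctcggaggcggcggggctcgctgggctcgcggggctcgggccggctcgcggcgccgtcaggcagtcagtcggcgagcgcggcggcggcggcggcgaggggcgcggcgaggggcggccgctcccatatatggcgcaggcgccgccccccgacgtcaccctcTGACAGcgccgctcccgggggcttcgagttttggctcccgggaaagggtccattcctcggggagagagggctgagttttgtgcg
Gdnf: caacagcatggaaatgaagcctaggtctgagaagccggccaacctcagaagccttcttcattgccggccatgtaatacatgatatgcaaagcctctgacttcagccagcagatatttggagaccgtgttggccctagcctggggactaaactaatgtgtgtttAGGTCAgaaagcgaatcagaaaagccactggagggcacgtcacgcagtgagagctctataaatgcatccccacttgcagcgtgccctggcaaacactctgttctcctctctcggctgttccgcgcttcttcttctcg
A match is a string of letters and no evidence of binding, and with shares of 19.2% and 16.3% over all windows the 2 shorter motifs are common.

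Of 13 chondrogenic genes compared, 6 were at least 2-fold lower and none 2-fold higher, with a median log2 ratio (10 CPM added, as for every list median) of -0.998 against 0.02 over all genes compared. Their 15 listed genes summed to 1547 CPM in members and 3153 in matched barcodes. Sox9, the master transcription factor of cartilage, was at 379 against 602 CPM, a log2 ratio of -0.67 (-0.78 to -0.55), and Acan, the main cartilage proteoglycan, at 19.4 against 48.1 CPM. In the same comparison, 40.7% of matched barcodes and 17.5% of members had 3 or more of 8 chondrocyte markers.

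Of 13 genes compared from the retinoic acid and Meis list, 1 was 2-fold higher and none lower, with a median of 0.24. Besides Meis2 and Meis1, Crabp2, a retinoic acid-binding protein, was at 327 against 203 CPM, 0.69 (0.53 to 0.84). Rarb, a retinoic acid receptor whose own gene responds to retinoic acid, was at 15.3 against 6.34 CPM, 1.27 (0.42 to 2.18). Rarg, another receptor, was at 45.5 against 73.8 CPM, -0.70 (-1.04 to -0.37), and Cyp26b1, which breaks retinoic acid down, at 24.98 against 41.8 CPM, -0.74 (-1.20 to -0.29). Aldh1a3, another enzyme of its synthesis, was at 13.8 against 4.10 CPM. Aldh1a1, Cyp26a1 and Cyp26c1 had no UMI in members, which allows up to 1.12 CPM. The list thus held genes on both sides, Meis2, Meis1 and Crabp2 above the matched barcodes and Rarg and Cyp26b1 below them.

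Of the connective tissue transcription factors, 34 were compared, 2 were 2-fold higher (Meox1 and Ebf3) and none lower, with a median of 0.08. Osr1, a marker of muscle connective tissue, was at 98.0 against 69.0 CPM, 0.51 (0.23 to 0.79). Twist1, a mesenchymal bHLH factor, was at 92.5 against 133 CPM, -0.53 (-0.77 to -0.29). Tshz3, the third teashirt gene, was at 27.2 against 31.3 CPM, with an interval of -0.68 to 0.27 on the log2 ratio.

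The 10 genes of the IGF list had a median log2 ratio of 0.48 with none 2-fold apart. Igfbp3 was at 156 against 87.6 CPM, Igf1 at 196 against 128, Dlk1 at 275 against 184, Igfbp5 at 914 against 643 and Igf2r, the receptor that clears Igf2, at 351 against 248. H19, an imprinted non-coding RNA, was at 1968 against 1910 CPM, with an interval from -0.01 to 0.10 on the log2 scale. In the axon and vessel guidance list 27 genes were compared, 1 was 2-fold lower (Sema3c) and none higher, with a median of 0.17. Slit2, a repellent for axons, was at 85.7 against 47.7 CPM and Dcc, a netrin receptor, at 45.1 against 23.1 CPM.

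The remaining lists stayed near the matched barcodes. Of 16 Wnt genes compared 1 was 2-fold lower (Lef1), and Rspo3, which strengthens Wnt signals, was at 89.8 against 45.1 CPM. Of 15 genes of matrix receptors and adhesion 2 were 2-fold lower, Itga4 and Pdgfa, and Cdh2, N-cadherin, was at 302 against 183 CPM. None was 2-fold apart among 30 cell cycle genes (median -0.17), 13 Hox genes (0.05), 17 BMP and GDF genes (0.01), 10 FGF genes (0.24), 8 hedgehog genes (-0.0004), 39 collagen and matrix genes (0.12), 11 proteoglycans (0.12), 4 tendon genes (0.24), 4 joint genes (-0.02), 6 Notch genes (0.06), 7 heterochronic genes (-0.04) or 9 limb T-box, Pitx and Lmx1b genes (0.08). Hoxb4, an anterior Hox gene, was at 34.7 against 16.04 CPM, and Scx, a tendon progenitor factor, at 89.1 against 54.8 CPM. The adipose and Ebf partner list had 5 genes compared and a median of -0.0004. The chemokine and HGF list had 2, with a median of 0.09.

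Receptors for the signals that named the population were read in other barcodes of the same library. Gfra1, the co-receptor of Gdnf, was at 45.1 CPM (37.4 to 53.9) in members and 20.5 (15.45 to 26.7) in matched barcodes. It was at 88.2 CPM in barcodes with Pax7 and at 75.1 CPM in barcodes with Myog, above the members, and at 53.6 CPM in those with Sox10, a Schwann cell gene. Ret, the signalling receptor, had no UMI in members, which allows up to 1.12 CPM, and 10 UMIs in all 11522 other kept barcodes, 4 of them in barcodes with Matn1 and 1 in a barcode with Ptprc. Cxcr4, the receptor of Cxcl12, was at 0.37 CPM in members, 18.0 in Cdh5 barcodes, 29.0 in Ptprc barcodes and 5.40 in Pax7 barcodes. Hgf, a ligand for migrating muscle progenitors, was at 19.4 against 8.95 CPM, and its receptor Met at 6.71 CPM in members against 81.9 in Pax7 barcodes. Ngfr, the low-affinity neurotrophin receptor, was at 29.1 against 12.3 CPM. Of the GDNF and Ret list, only Gfra1 reached the level for comparison.

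The members were next placed among all kept E12.5 barcodes by principal components made without the rule, exclusion, proliferation and sex-linked genes. Of the 15 nearest neighbours of a member, 24.7% on average were members, against 6.54% for matched barcodes and 4.48% for all other barcodes. By the number of rule genes seen, the share was 2.31% at 0, 5.69% at 1, 12.497% at 2, 21.9% at exactly 3 and 32.1% at 4 or more. Some 12.4% of members had no member among their neighbours, and the median member had 20%. The members were thus enriched beside each other in genes outside the rule, and most neighbours of a member were still not members. Since the rule genes were proposed with these data in view, this is a description.

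Clustering on the same components gave 24 clusters, and the members were spread over 17 of them. Cluster 5 held 211 members, 28.2% of all, against 5.74% of the matched barcodes. Members made up 26.7% (23.7 to 29.9) of its 790 barcodes. Its 10 leading genes by fold were Meis2, Ebf2, Tshz2, Aldh1a2, Postn, Gdnf, Meis1, Egfl6, Cxcl12 and Nr2f2, of which 5 are rule genes that took no part in the clustering. Those genes were proposed with these data in view, so a cluster led by them does not test the rule. Cluster 10, led by histone and mitotic genes with Calb2 and Lum, held 18.2% of members and 12.1% of matched barcodes. Cluster 1, led by histone genes, held 10.0% against 15.1%, cluster 8, led by Gria2, Isl1 and Hoxb4, 8.54% against 6.81%, and cluster 11, with Aspn, Tbx3 and Tbx5 among its leading genes, 7.61% against 3.74%. The other 538 members thus lay outside cluster 5.

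**Figure D3:**
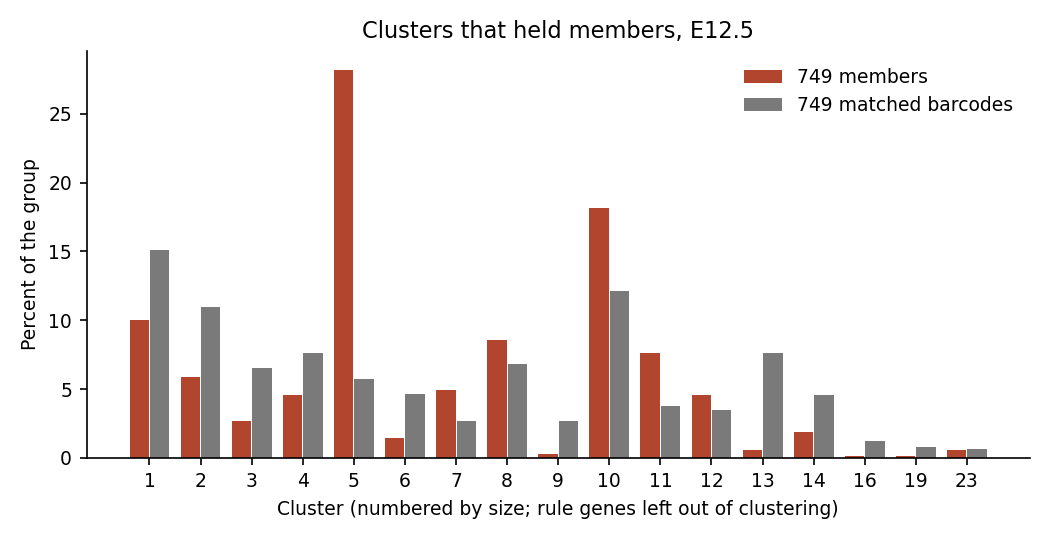
Share of the 749 members (red) and of the 749 matched barcodes (grey), in percent, in each E12.5 cluster that held a member; clusters are numbered by size, and rule genes were left out of the clustering. Cluster 5 holds 28.2% of members against 5.74% of matched barcodes, and no other cluster holds over 18.2% of members.

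Over all 790 barcodes of cluster 5, Aldh1a2 was at 56.2 CPM against 11.4 in the barcodes outside it, Gdnf at 29.9 against 3.39, Ebf2 at 166 against 39.7, Tshz2 at 569 against 170, Tshz1 at 262 against 103 and Cxcl12 at 285 against 91.7. Even its 579 barcodes that did not meet the rule had Tshz2 at 476 CPM and Ebf2 at 105 CPM, and Aldh1a2 at 14.5 CPM. Cluster 7, led by Hoxa11os, Chrdl1, Ebf1, Aldh1a2, Gsc and others, had Aldh1a2 at 54.9 CPM, close to cluster 5, with Gdnf at 5.07 CPM, and held 4.94% of the members. Its barcodes were shallow, with a median of 1410 UMIs against 2366 in cluster 5.

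Inside cluster 5, members had Meis2 at 762 CPM (696 to 833), against 331 (307 to 357) in the 538 members elsewhere. Meis1 was at 249 against 128 CPM, Nr2f2 at 300 against 182 and Postn, a matrix protein, at 202 against 115. Ebf3 was at 300 (259 to 346) against 264 (242 to 287) and Meox1 at 83.6 against 71.3, differences within their counting intervals. Even the members outside cluster 5 were above the matched barcodes in Meis2 (331 against 154 CPM), Hic1 (72.2 against 25.4) and Ebf3 (264 against 129). The 579 barcodes of cluster 5 that did not meet the rule had Meis2 at 633 CPM (592 to 677), against 433 in all 749 members. Meis1 was at 190 against 157 CPM, Nr2f2 at 284 against 210, Postn at 202 against 135 and Col2a1 at 227 against 288. Ebf3 was at 226 against 273 CPM, Meox1 at 59.6 against 74.2 and Hic1 at 77.1 against 80.9. High Meis2, Meis1 and Nr2f2 and low Col2a1 were thus not particular to the members. Since clusters were cut on these same genes, differences between clusters are a description.

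Levels outside the rule followed the number of rule genes seen. Each barcode was thinned to 2000 UMIs to count its rule genes at equal depth, and levels were then read from its full counts. Exclusion genes were also read after thinning, so that the full counts may hold some of their UMIs. Across 0, 1, 2, 3 and 4 or more rule genes (3154, 2101, 859, 254 and 61 barcodes), Meis2 was at 137, 214, 330, 518 and 687 CPM. Hic1 was at 18.0, 37.4, 72.3, 84.6 and 133 CPM, Nr2f2 at 85.9, 119, 148, 241 and 322 CPM, and Amot at 151, 245, 365, 417 and 654 CPM. Ebf3 went from 120 to 374 CPM and Meis1 from 58.1 to 223 CPM over the same steps. Col2a1 was lower at each step, at 859, 681, 376, 280 and 133 CPM, and Prrx1 was at 934 CPM with 0 rule genes and 668 CPM with 4 or more. The step from 2 to 3 genes, where the rule sets its limit, was smaller than the steps beside it for Hic1 and Ebf3 and larger than the steps beside it for Meis2 and Nr2f2.

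**Figure D4:**
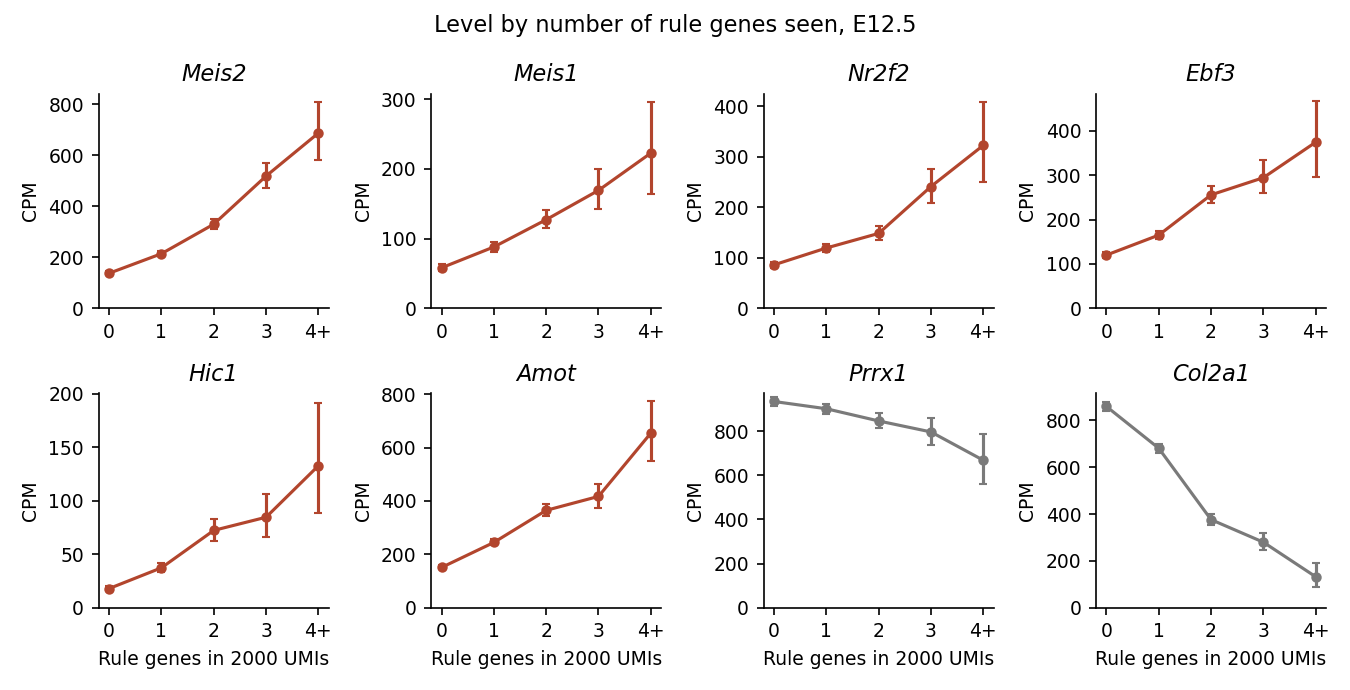
Level of 8 genes (CPM, vertical axes from 0) by the number of rule genes seen after thinning to 2000 UMIs (horizontal axis, 0 to 4 or more). The E12.5 barcodes had no exclusion gene after thinning, and bars are exact Poisson 95% intervals. Meis2 goes from 137 to 687 CPM and Col2a1 from 859 to 133 CPM.

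Members with Aldh1a2 were set beside members with Gdnf. Of the 749, 130 had Aldh1a2 without Gdnf, 68 had Gdnf without Aldh1a2, 5 had both and 546 had neither. The rule itself bears on these counts, and over the 9377 barcodes given above the 2 genes were not seen together less often than if unrelated. Meis2 was at 995 CPM (879 to 1123) in the 68 and at 400 (343 to 463) in the 130. Meis1 was at 282 against 119 CPM, Nr2f2 at 379 against 150 and Meox1 at 93.9 against 35.9. Shox2, a homeobox gene of the proximal limb skeleton, went the other way, at 447 (370 to 535) in members with Gdnf and 1091 (996 to 1192) in those with Aldh1a2. Ebf1 was at 139 against 386 CPM and Tbx3 at 60.1 against 146 CPM. These 7 genes were picked after their values were seen. Others read in the same barcodes had overlapping intervals, among them Hic1 at 63.8 (37.2 to 102) with Gdnf and 74.1 (51.0 to 104) with Aldh1a2, and Crabp2 at 278 (218 to 349) and 330 (279 to 388).

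The same genes were read in barcodes that did not meet the rule. In 37 other barcodes with Gdnf and 133 with Aldh1a2, Meis2 was at 655 against 123 CPM, Nr2f2 at 216 against 92.8, Meis1 at 181 against 60.0, Shox2 at 448 against 906 and Ebf1 at 233 against 461. Tbx3 was at 103 against 109 CPM there and Meox1 at 86.2 (41.3 to 159) against 51.8 (31.2 to 81.0), both with overlapping intervals. Within barcodes read as female, members with Gdnf (22) and with Aldh1a2 (80) had Meis2 at 620 against 385 CPM and Shox2 at 609 against 1137 CPM, and within those read as male (24 and 20), Meis2 at 1187 against 522 and Shox2 at 465 against 1073. Meis1 was at 118 (58.7 to 210) against 96.3 (62.9 to 141) CPM in female members and at 406 (291 to 550) against 232 (133 to 377) in male members, so that within each sex its intervals overlapped. Without the highest doublet scores (55 and 101 members), Meis2 was at 1263 against 462 CPM.

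**Figure D5:**
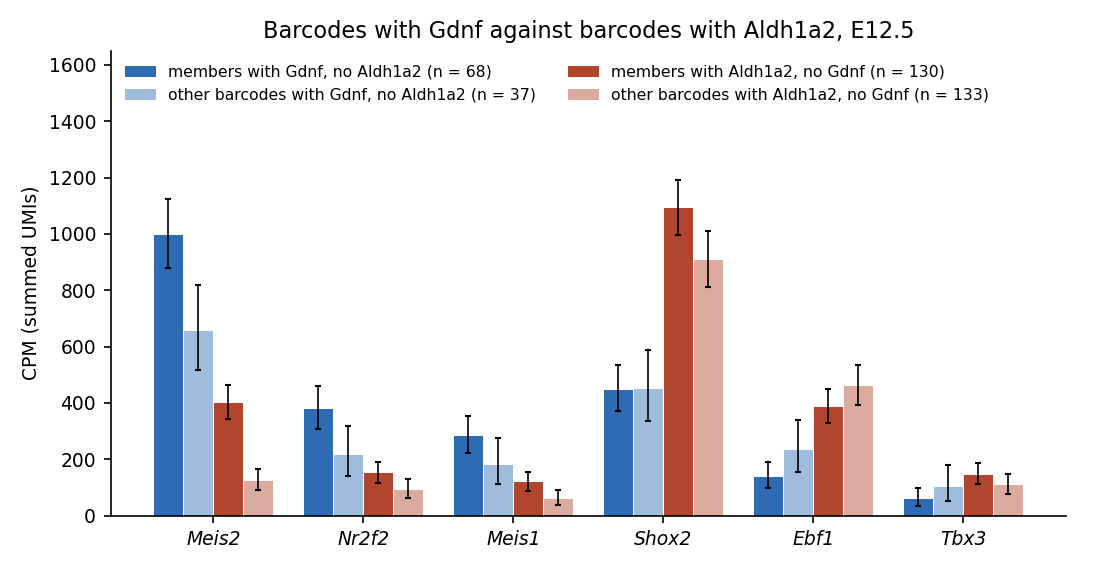
Level of 6 genes (CPM of summed UMIs, vertical axis from 0) in E12.5 barcodes with Gdnf and no Aldh1a2 (blue) and with Aldh1a2 and no Gdnf (red), for members (dark) and for other barcodes that did not meet the rule (pale); bars are exact Poisson 95% intervals. Meis2 is at 995 against 400 CPM and Shox2 at 447 against 1091 CPM in members, and both keep these directions in the other barcodes.

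Cluster 5 held similar shares of both kinds, 39.3% of members with Aldh1a2 (31.0 to 48.0) and 39.7% of those with Gdnf (28.5 to 51.9). Cluster 10 held 28.8% of members with Gdnf and 11.9% of those with Aldh1a2, and cluster 11 held 6.67% of those with Aldh1a2 and none of the 73 with Gdnf. Limb genes differed too. Tbx5, a forelimb gene, was seen without the hindlimb genes Pitx1 and Tbx4 in 2 of the 73 members with Gdnf (2.74%, 0.334 to 9.55) and in 21 of the 135 with Aldh1a2 (15.6%, 9.89 to 22.8). Pitx1 or Tbx4 without Tbx5 was seen in 41.1% and 40.0% of them. Over all members, 14.8% had Tbx5 alone and 34.8% Pitx1 or Tbx4 alone, against 10.3% and 43.1% of matched barcodes, and 6.01% of members had genes of both limbs. No background share was measured for these genes, and the limb a barcode came from was not read from them.

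Members read as male and as female also differed. From Xist and Y-linked UMIs, 163 members read as male and 364 as female, against 117 and 430 matched barcodes, and the rule was met by 8.69% of male and 5.57% of female barcodes. Meis2 was at 628 CPM in male and 338 in female members, Gdnf at 62.8 against 24.0, Shox2 at 565 against 936 and Pitx1 at 119 against 258. Sex, embryo and the limb level that was dissected from each cannot be told apart here. Against matched barcodes of the same sex, Meis2 had a log2 ratio with 10 CPM added of 1.09 in male and 1.40 in female barcodes, and Col2a1 -1.21 and -1.09. Other named genes differed more between the sexes, with Pcp4 at 3.54 in male and 1.40 in female barcodes, Inhba at 0.40 and 1.29, and Cnmd at -2.13 and -0.86.

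The rule was then applied to the E15.5 library, whose barcodes are not among the members. Since the rule was chosen with earlier results of these data known, this is a description and no independent check. E15.5 barcodes were deeper, with a median of 9518 UMIs against 2453 at E12.5, so that all were thinned to 2000 UMIs first. Rule and exclusion genes were both read in those 2000 UMIs, and full counts may hold UMIs of exclusion genes. At E12.5, 315 of 8212 barcodes (3.84%, 3.43 to 4.27) met the rule, and 4059 shallower ones were left out. At E15.5, 232 of 3834 did (6.05%, 5.32 to 6.85), and 272 were left out. Without thinning, the shares were 6.10% and 31.9%. With 1 library per age, whether the ages differ beyond the spread between embryos was not tested.

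Each library's own members were compared with its own depth-matched barcodes on full counts. At E12.5, 39 of 7466 genes (0.522%) were 2-fold higher and 52 (0.696%) 2-fold lower. At E15.5, 21 of 6734 (0.312%) were higher and 97 (1.44%) lower. Of the 15 genes named as higher at E12.5, 13 were also above 0 at E15.5, with 10 CPM added, 2 of them past 2-fold, and the median log2 ratio was 0.36, where 3693 of all 6734 genes compared were above 0 with a median of 0.02. The 2 past 2-fold were Meox1, at 46.3 against 12.4 CPM, and Amot, at 127 against 50.3 CPM. Meis2 was at 176 against 91.8 CPM, a log2 ratio of 0.94 (0.71 to 1.18), where the thinned E12.5 members had 552 against 183 CPM, 1.59 (1.36 to 1.84). Hic1 was at 84.6 against 47.9 CPM, 0.82 (0.49 to 1.16).

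Nr2f2 at E15.5 was at 84.2 against 67.5 CPM, 0.32 (0.02 to 0.62), and Camk2d at 90.6 against 78.6 CPM, with an interval from -0.08 to 0.49. Inhba was at 27.9 against 36.3 CPM, and Pcp4, at 171 CPM in the thinned E12.5 members, had 1 UMI in those of E15.5. Of the 15 lower genes, 14 were also below 0 at E15.5 and 7 past 2-fold, with a median of -0.81. Col2a1 was at 11.6 against 59.9 CPM and Acta2 at 33.1 against 150 CPM. Papss2 was at 11.2 CPM in both groups.

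The rule genes did not all keep their place at E15.5. Among barcodes with exactly 3 of them after thinning, Tshz2 was at 835 CPM against 682 at E12.5, Cxcl12 at 355 against 411, Ebf2 at 245 against 294 and Aldh1a2 at 92.3 against 111. Tshz1 was at 186 against 492 CPM and Gdnf at 1.42 against 40.5 CPM. These values are tied to the rule and are given as a description. Without thinning, E15.5 had 233 members with Aldh1a2 and no Gdnf and 37 with Gdnf and no Aldh1a2. Meis2 was at 125 CPM in the first and 110 in the second, with overlapping intervals, and Shox2 was at 247 (230 to 266) and 178 (143 to 220). Meis1 and Meox1 were the other way round from E12.5, Meis1 at 33.0 (26.8 to 40.1) with Aldh1a2 and 12.3 (4.50 to 26.7) with Gdnf, and Meox1 at 34.6 (28.3 to 41.9) and 10.2 (3.32 to 23.9). With Gdnf, these 2 values rest on 6 UMIs of Meis1 and 5 of Meox1. Gdnf itself was not higher in the thinned E15.5 members, with 5 UMIs against 7 in their matched barcodes. The difference between ages was not tested.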

How the data were processed

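The authors deposited unnormalized UMI counts, as a gene by barcode matrix, for 1 E12.5 and 1 E15.5 library. Per the submitters' processing notes, the authors used Cell Ranger 4.0.0, Seurat 4.3.0 and build mm10; the annotation release is not given in the sources used here. The rule, the members, the gene lists and the genes of the Aldh1a2 and Gdnf split were chosen with earlier results of these data known.

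Kept barcodes had at least 500 genes and under 10% mitochondrial UMIs (604 and 166 of 12941 E12.5 barcodes failed), with 34410322 UMIs kept at E12.5 and 44031345 at E15.5. Counts were summed per group and given as CPM. Shares have exact Clopper-Pearson intervals, CPM exact Poisson intervals and ratios exact conditional intervals, at 95%. For a count of 0 the limit is 3 counts. Genes under 20 CPM in both groups and the 11 rule and exclusion genes were not compared. The 15 highest and 15 lowest genes at 50 CPM or more (without mitochondrial, ribosomal, haemoglobin, Gm, Rik and sex-linked genes) and up to 4 genes per list were named; other genes named in the text were chosen after their values were seen. Components (30, from 2000 variable genes), 15 neighbours and Leiden clusters (resolution 1.0, seed 0) left out rule genes. Doublets were scored as in Scrublet with 2 simulated doublets per barcode; the top 1270 at E12.5 were kept here and removed as an alternative. The ratio step was tested on simulated data with 200 changed genes over 7380, and recovered 200 of them at 4-fold. The simulated counts held counting error alone, without spread between barcodes, so they do not show how genes near 2-fold are called. Python 3.11.15, numpy 2.4.6, scipy 1.17.1, scikit-learn 1.9.0, igraph 0.11.9 and leidenalg 0.10.2 were used. Of 32285 gene identifiers, 32158 were found in GENCODE vM21 (GRCm38). Promoter windows of genes on chromosome 18 were not searched. Alternatives covered the rule, the filters, doublets, exclusion genes, the comparison group, sex, scaling, the CPM minimum and addition, thinning, neighbours and variable genes.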

Additional observations from a re-analysis of the deposited data

How the results depend on the processing

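The rule and depth set how many barcodes met it, and 10 CPM and the comparison group set how many genes were 2-fold apart. Barcodes seen at low depth may be missed, and 1 library per age leaves no replicate check. No paired analysis was possible because each age is 1 library. Asking for at least 2 of the 6 genes, members were 18.1% of barcodes with 40.2% member neighbours, 5 genes higher, 5 list genes lower, and 14.3% and 24.2% of thinned E12.5 and E15.5 barcodes; a held-out median could not be had there, since 3 of the 6 genes got no value. Asking for at least 4, members were 1.63% with 13.2% member neighbours, 44 genes higher, 42 lower, 7 and 17 list genes, a held-out median log2 ratio of 2.37 (1.98 in the report), and 0.743% and 0.861% after thinning. With at least 1000 genes, 6.94% met the rule; with thinned detection, 3.84%; with no exclusion genes, 7.07%, 68 genes lower and 5 list genes higher. Without the highest doublet scores, 5.21% met it, with 31 genes higher, 43 lower and 10 and 18 list genes (3 and 10 in the report). Unmatched, 63 were lower, with 5 and 22 list genes. With 1 CPM added, 42 and 41 were apart, with 10 and 16 list genes. Male barcodes gave 8.69%, 108 and 88 genes, 11 and 22 list genes and 31.6% member neighbours. Female barcodes gave 5.57%, 22 genes higher and 5 list genes. At least 3 of the other 5 genes gave a held-out median of 2.37. Thinned to 4000 UMIs, 9.44% and 16.9% met the rule at E12.5 and E15.5; without thinning, 6.10% and 31.9%. Of 420 values of the 30 named genes under 14 alternatives, 1 changed sign, Gria2 in female barcodes (0.0891). No held-out gene changed sign in 39 values.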
